A study of Mus musculus with 12 samples.

Results

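The genes described here are 48 imprinted genes of the mouse, listed by name from 20 imprinted domains, 24 expressed from the paternal and 24 from the maternal allele by textbook assignment. They were found by Ensembl ID, with symbols from GENCODE M21, in the deposited table of expected counts, which held 47 of them among 43346 gene IDs. Of these, 45 passed the filter on low counts and were tested with 17148 genes in all. Kcnq1 and Kcnk9 stayed below the filter, with 0 to 9 and 0 to 1 counts per library, and Peg13 was not analysed here. No member lies on chromosome 13.

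RNA was sequenced from 12 libraries of mouse embryonic stem cells, pluripotent cells of the early embryo, in 4 groups of 3. B6 cells are C57BL/6J and D2 cells are DBA/2J, both inbred strains. B6-13D2 cells, strain B6.D2-(rs30079041-rs51756099)/Bakr, have a D2 segment of chromosome 13 on the B6 background, and D2-13B6 cells, strain D2.B6-(rs29224292-rs13469455)/Bakr, have a B6 segment on the D2 background. The series text ends the latter segment at another marker than the sample labels do. All groups grew in serum with LIF, 1 µM PD0325901, an inhibitor of MEK, and 3 µM CHIR99021, an inhibitor of GSK3. Each strain was a single line per the protocol, so strain and line cannot be told apart. The titles give B6 replicate 3 another line name than B6 replicates 1 and 2. For D2, titles and cell line field disagree on the line's name. Over the 29 members with a B6 mean of at least 10 CPM, B6 replicate 3 was 0.71 (Kcnq1ot1) to 1.1 (Commd1) times the mean of B6 replicates 1 and 2, with a median of 0.975. Titles call the replicates technical and the protocol calls them independent cultures, so p-values measure the spread between these libraries only.

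Imprinted genes are transcribed mainly from the allele inherited from one parent, because methylation set in a germ line marks one copy of a control region in each domain. Within a domain, a gene or noncoding RNA expressed from one parental copy often lies beside genes expressed from the other. Many of these genes act on fetal growth, with paternally expressed Igf2 and Dlk1 promoting it and maternally expressed Igf2r, Grb10, Cdkn1c and Phlda2 restraining it. Embryonic stem cell lines are known to lose or gain imprints in culture, some of them in medium with a MEK inhibitor. The table gives totals over both alleles, so parental origin and methylation were not measured here.

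The protein ZFP57 holds germline imprints in the early embryo and is known to recognise the letters TGCCGC when methylated. Among paternally expressed members, 8 have a promoter window with these letters: Zdbf2, Mcts2, Nnat, Mest, Nap1l5, Snrpn, Igf2 and Plagl1. Of these, 3 are shown as examples, picked with their values known. Each line gives 250 bases before to 50 after a transcription start, from RefSeq on GRCm38.p6, written 5′ to 3′ on the plus strand. Capitals mark TGCCGC or its reverse complement GCGGCA.
Mcts2, chr2:152686898-152687197: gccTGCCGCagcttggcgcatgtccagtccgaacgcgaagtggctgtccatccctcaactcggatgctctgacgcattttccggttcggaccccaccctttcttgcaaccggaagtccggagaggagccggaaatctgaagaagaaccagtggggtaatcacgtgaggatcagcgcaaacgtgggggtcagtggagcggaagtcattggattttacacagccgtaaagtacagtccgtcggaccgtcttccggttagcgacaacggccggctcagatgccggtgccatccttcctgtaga
Mest, chr6:30737800-30738099: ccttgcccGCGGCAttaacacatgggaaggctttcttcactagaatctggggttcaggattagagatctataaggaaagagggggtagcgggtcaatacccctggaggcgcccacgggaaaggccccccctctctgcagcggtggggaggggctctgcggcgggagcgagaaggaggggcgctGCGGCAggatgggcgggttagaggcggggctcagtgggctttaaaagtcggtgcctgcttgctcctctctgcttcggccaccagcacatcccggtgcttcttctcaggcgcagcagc
Plagl1, chr10:13090582-13090881: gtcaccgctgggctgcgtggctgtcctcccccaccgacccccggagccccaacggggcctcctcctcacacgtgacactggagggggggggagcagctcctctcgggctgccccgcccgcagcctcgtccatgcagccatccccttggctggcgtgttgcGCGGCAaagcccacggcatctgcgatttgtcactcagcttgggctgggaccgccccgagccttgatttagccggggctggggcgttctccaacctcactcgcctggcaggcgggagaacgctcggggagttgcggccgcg
TGCCGC was searched on both strands. It was present in 9 of 29 windows of paternally expressed members (31%), in 5 of 27 of maternally expressed members (18.5%) and in 3813 of 32851 RefSeq promoter windows of the same length (11.6%). RefSeq windows matched 37 of the 48 members. A match describes letters in this window and no binding was measured.

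Library totals were 22184196 to 36411799 expected counts. The 7 pluripotency markers were all expressed, with summed levels of 3657 to 3812 CPM (counts scaled to library size) in B6, 4116 to 4241 in B6-13D2, 2597 to 2621 in D2 and 2982 to 2986 in D2-13B6. The 9 fibroblast markers, for cells often used as feeders and not mentioned in the labels, summed to 9361 to 10167 CPM in B6, 3087 to 3175 in B6-13D2, 14142 to 16927 in D2 and 7718 to 8043 in D2-13B6. None of the 9 was at 0 in any group. Col1a1, a collagen chain of fibroblasts, made up most of that sum, at 6428 ± 348 CPM (SD, n = 3) in B6 and 2093 ± 37.5 in B6-13D2. Col1a1 stood at 10480 ± 925 CPM in D2 and 5227 ± 99.2 in D2-13B6. All 9 were higher in D2 than in B6 and lower in B6-13D2 than in B6, and 7 were lower in D2-13B6 than in D2, so marker levels of another cell type moved with every comparison below. The part of these cells in the results was not tested, and in bulk RNA fewer cells of a type and less RNA per cell cannot be told apart.

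Per kilobase of exon, the order of mean levels changed with the group. Cd81 was first in B6 (129.7 CPM per kb, before Igf2 at 77.95), in D2 (139.2, before Igf2 at 111.5) and in B6-13D2 (107.3, before Slc38a4 at 48.92). In D2-13B6 H19 (111.9 CPM per kb) stood beside Cd81 (109.9). Many imprinted genes differed between the lines, as did most genes. A gene is called here when its adjusted p was under 0.05 in edgeR's quasi-likelihood test. D2 differed from B6 at 34 of 45 members, 28 higher and 6 lower, against 60% of all genes called, 29.8% higher and 30.3% lower. The median log2 fold change was 0.32 over the members and 0.01 over all genes. Among paternally expressed members 17 of 23 were higher in D2 and 1 was lower (Slc38a4, an amino acid transporter), and among maternally expressed members 11 of 22 were higher and 5 lower. Past a log2 fold change of 1 in size were 5 members, and 11.3% of all genes; one of the 5, Slc22a18, was not past 1 without D2 replicate 3.

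B6-13D2 differed from B6 at 34 members, 15 higher and 19 lower, where 58.3% of all genes were called, 25.4% higher and 32.9% lower. Paternally expressed members split into 10 higher and 9 lower, maternally expressed members into 5 and 10. The median was -0.04 over the members and -0.04 over all genes, and 7 members passed a log2 fold change of 1 in size, with 14.5% of all genes. D2-13B6 differed from D2 at 33 members, 15 higher and 18 lower, with 57.3% of all genes called, 27.6% higher and 29.7% lower. The split was 10 higher and 8 lower for paternally and again 5 and 10 for maternally expressed members. Here the median was -0.08 over the members and 0.00 over all genes, and Ascl2 alone passed a log2 fold change of 1 in size, against 8.96% of all genes.

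**Figure D1:**
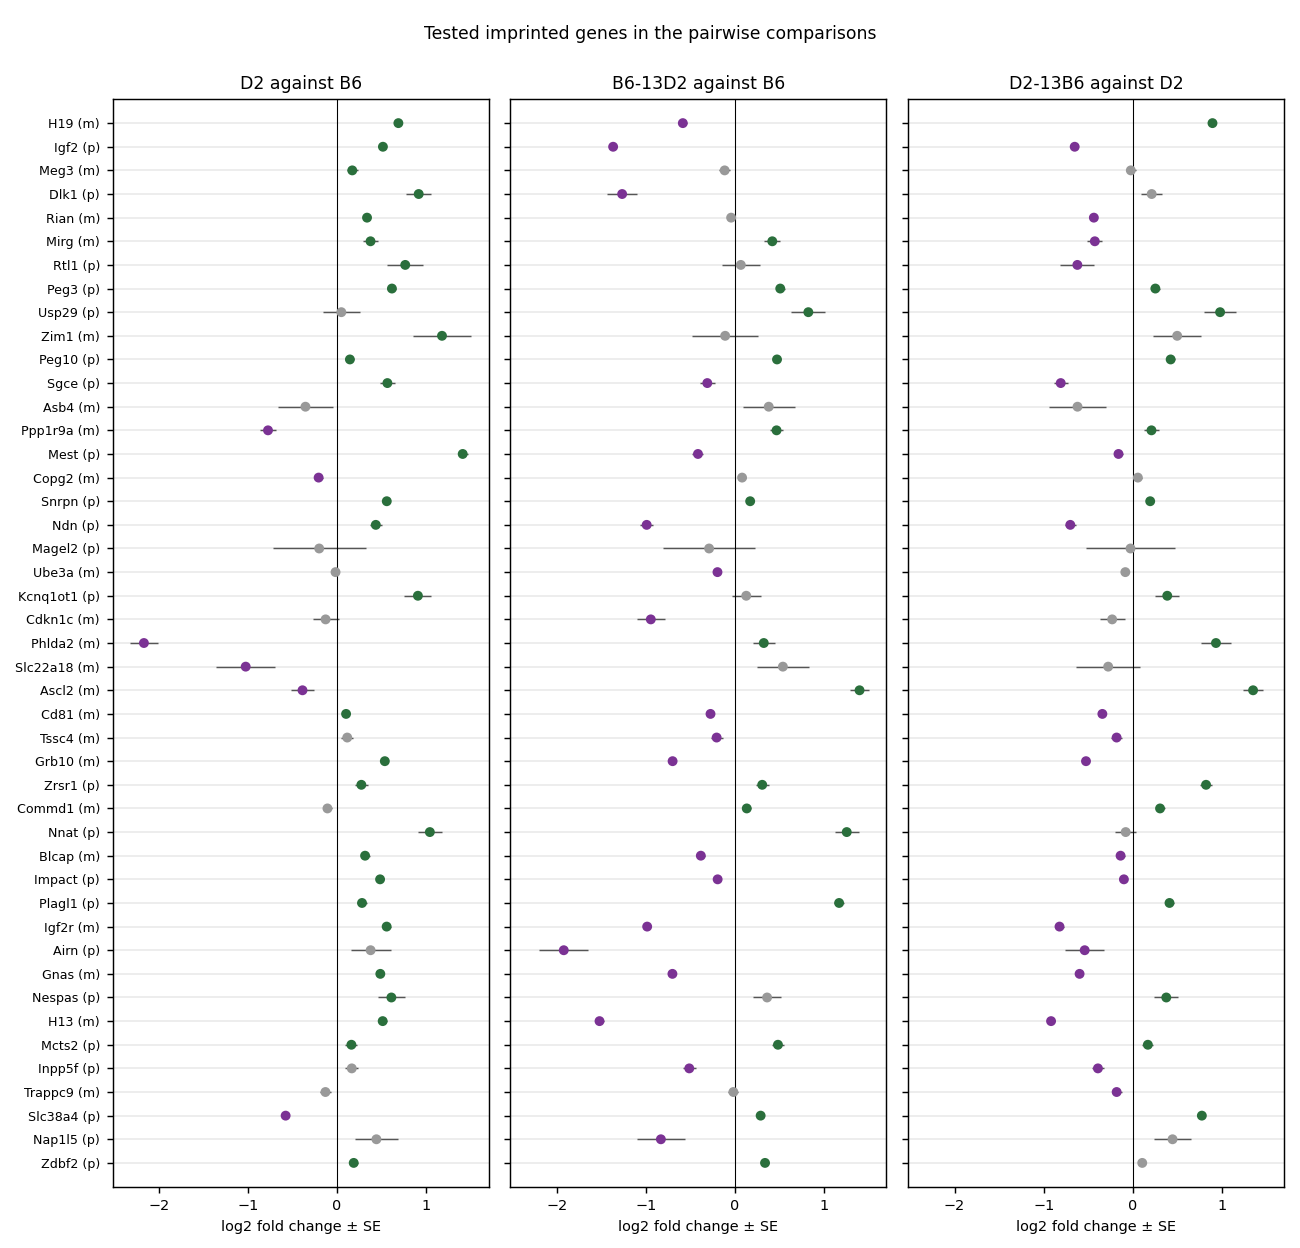
Log2 fold change ± SE from edgeR for the 45 tested imprinted genes in each pairwise comparison, with (p) for paternally and (m) for maternally expressed genes. Green points were called higher, purple points lower, and grey points were not called; Phlda2 at -2.17 in D2 against B6 is the lowest value and Mest at 1.41 the highest in that comparison.

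Both domains of insulin-like growth factor signalling, Igf2-H19 and Igf2r-Airn, differed between the groups. Igf2 (ENSMUSG00000048583, chr7:142650766-142666816, minus strand, build GRCm38), the paternally expressed fetal growth factor, was at 444, 466 and 428 CPM in B6 and 168, 178 and 172 CPM in B6-13D2. Igf2 stood at 661, 646 and 607 CPM in D2 and 409, 411 and 398 CPM in D2-13B6. H19 (ENSMUSG00000000031, chr7:142575529-142578143, minus strand), the maternally expressed noncoding RNA that shares enhancers with Igf2, was at 93.96, 88.6 and 92.9 CPM in B6 and 61.6, 60.7 and 61.3 CPM in B6-13D2. H19 stood at 152, 142 and 150.5 CPM in D2 and 279, 283 and 264 CPM in D2-13B6. For both genes B6-13D2 was lowest and no group overlapped another, but D2 was highest for Igf2 and D2-13B6 for H19. Igf2 rose in D2 against B6 at a log2 fold change of 0.52 (SE 0.0394, adjusted p = 4.5e-09), and was lower in B6-13D2 than in B6 at a log2 fold change of -1.37 (SE 0.0408, adjusted p = 7.35e-15) and in D2-13B6 than in D2 at a log2 fold change of -0.65 (SE 0.0393, adjusted p = 1.7e-10). H19 had a log2 fold change of 0.69 (SE 0.0397, adjusted p = 1.13e-10) in D2 against B6. For H19 it was -0.58 (SE 0.0415, adjusted p = 1.18e-09) in B6-13D2 against B6 and 0.89 (SE 0.0376, adjusted p = 1.79e-12) in D2-13B6 against D2. Thus in D2-13B6 the neighbours moved in opposite directions, H19 higher and Igf2 lower than in D2.

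Igf2r (ENSMUSG00000023830, chr17:12682406-12769664, minus strand), the maternally expressed receptor that clears IGF2, was at 390.2, 373 and 352 CPM in B6 and 184, 186 and 194 CPM in B6-13D2. Igf2r stood at 582, 546 and 512 CPM in D2 and 318, 310.4 and 299 CPM in D2-13B6. No group overlapped another, in the same order as for Igf2. Igf2r had a log2 fold change of 0.56 (SE 0.0463, adjusted p = 1.31e-08) in D2 against B6. For Igf2r it was -0.98 (SE 0.0474, adjusted p = 5.28e-12) in B6-13D2 against B6 and -0.82 (SE 0.0463, adjusted p = 7.22e-11) in D2-13B6 against D2. Airn (ENSMUSG00000078247, chr17:12741311-12860136, plus strand), the paternally expressed noncoding RNA whose transcription runs through the start of Igf2r, was at 2.20, 1.72 and 2.10 CPM in B6 and 0.519, 0.738 and 0.302 CPM in B6-13D2. Airn stood at 2.29, 2.28 and 3.32 CPM in D2 and 1.73, 1.94 and 1.70 CPM in D2-13B6, from 8 to 82 counts per library. The 3 B6-13D2 libraries were below all others. Airn was lower there than in B6 at a log2 fold change of -1.92 (SE 0.276, adjusted p = 1.01e-05), and D2 against B6 was not called (log2 fold change 0.38, SE 0.225, adjusted p = 0.158). The call of Airn in D2-13B6 against D2, a log2 fold change of -0.54 (SE 0.218, adjusted p = 0.0429), was lost with DESeq2 (adjusted p = 0.058), with the replicate block (0.0634), without D2 replicate 3 (0.198, at a log2 fold change of -0.36), without D2-13B6 replicate 1 (0.1), without D2-13B6 replicate 2 (0.0566) and without D2-13B6 replicate 3 (0.0967). Airn is known to silence Igf2r in cis in differentiated tissue, and here both RNAs were lowest in B6-13D2. The order of the groups for Igf2, Igf2r and Airn was that of the summed fibroblast markers, and their part was not tested.

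**Figure D2:**
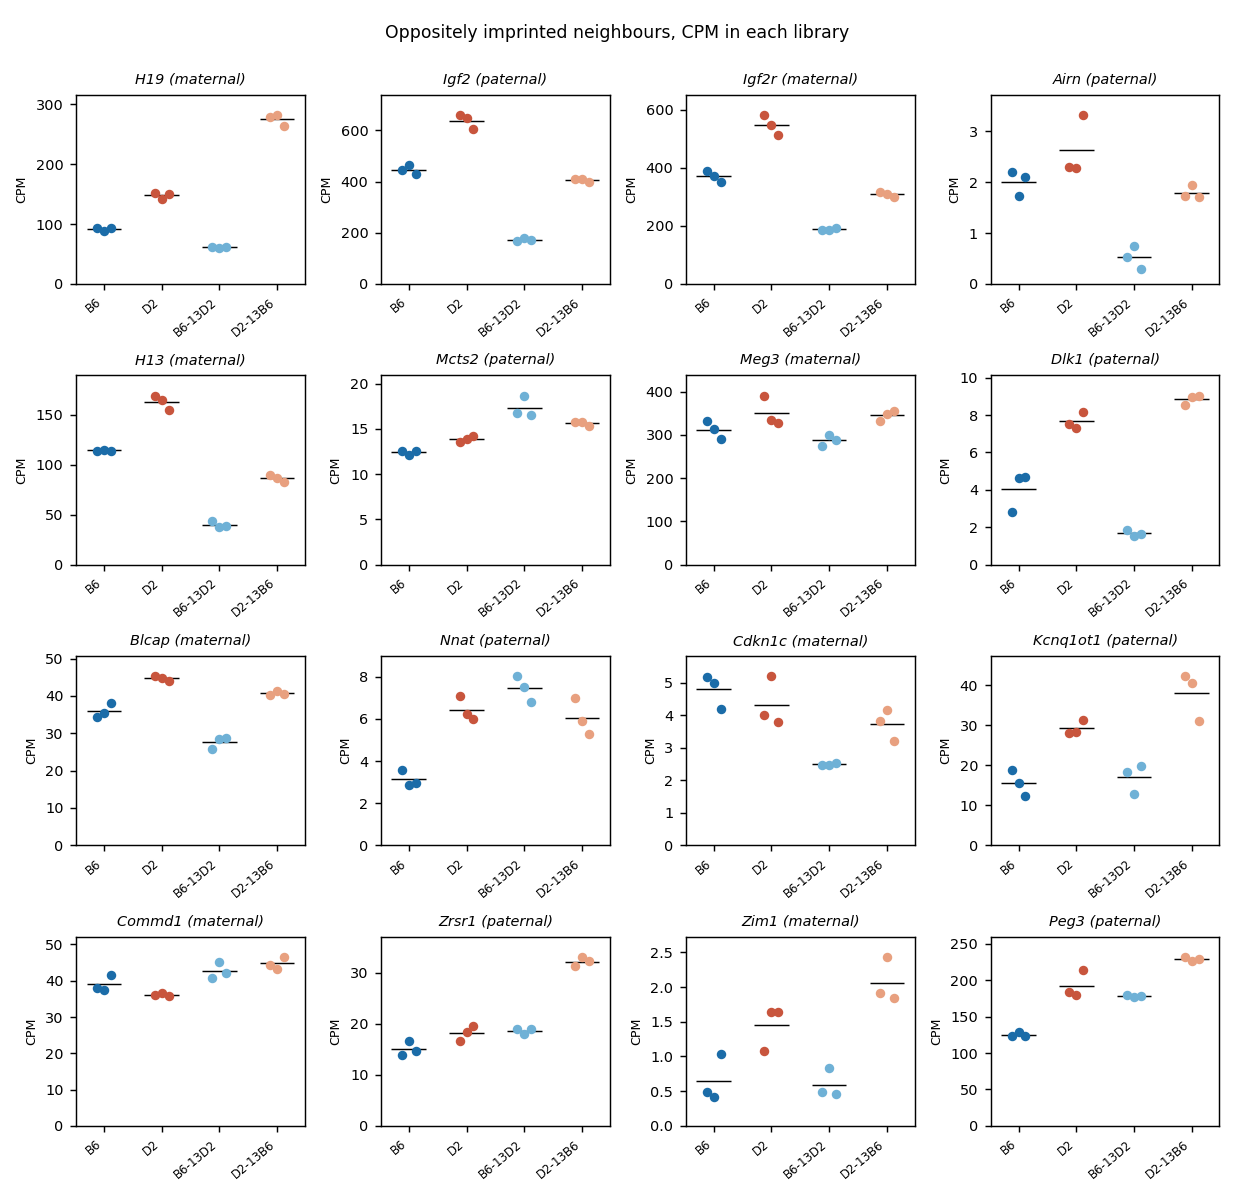
CPM of 8 pairs of oppositely imprinted neighbours, with 1 point per library, a line at the mean of each group of 3, and every axis starting at 0. Group means of Igf2, Igf2r, Airn, H13, Blcap and Meg3 were lowest in B6-13D2 and highest in D2. H19 was highest in D2-13B6 and Mcts2 in B6-13D2.

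H13 and Mcts2 moved apart. H13 (ENSMUSG00000019188, chr2:152669461-152708670, plus strand), the maternally expressed signal peptide peptidase, was at 113, 115 and 114 CPM in B6 and 43.3, 37.5 and 38.6 CPM in B6-13D2. H13 stood at 169, 165 and 154 CPM in D2 and 89.2, 86.7 and 82.6 CPM in D2-13B6. Its groups did not overlap, and B6-13D2 was far below the others. H13 had a log2 fold change of 0.51 (SE 0.0469, adjusted p = 4.37e-08) in D2 against B6. For H13 it was -1.52 (SE 0.0514, adjusted p = 3.75e-14) in B6-13D2 against B6 and -0.92 (SE 0.0468, adjusted p = 2.03e-11) in D2-13B6 against D2. Mcts2 (ENSMUSG00000042814, chr2:152687035-152687946, plus strand), a paternally expressed retrogene inside an intron of H13 whose promoter is shown above, was at 12.5, 12.1 and 12.6 CPM in B6 and 16.7, 18.7 and 16.6 CPM in B6-13D2. Mcts2 stood at 13.5, 13.9 and 14.2 CPM in D2 and 15.8, 15.7 and 15.3 CPM in D2-13B6. Its B6-13D2 libraries were all highest, the reverse of H13. Mcts2 was higher in B6-13D2 than in B6 at a log2 fold change of 0.48 (SE 0.0642, adjusted p = 4.01e-06). Its smaller difference in D2 against B6, a log2 fold change of 0.16 (SE 0.0664, adjusted p = 0.0435), was lost with no filter (adjusted p = 0.128), with the replicate block (0.0569), with only the libraries compared (0.0671), without B6 replicate 1 (0.0748), without B6 replicate 2 (0.118), without B6 replicate 3 (0.0699), without D2 replicate 2 (0.0919), without D2 replicate 3 (0.0923), without D2-13B6 replicate 1 (0.052), without D2-13B6 replicate 2 (0.0526) and without D2-13B6 replicate 3 (0.0505). That in D2-13B6 against D2, a log2 fold change of 0.17 (SE 0.0616, adjusted p = 0.0263), was lost with DESeq2 (adjusted p = 0.086), with a CPM filter of 1 (0.0668), without D2 replicate 1 (0.0518), without D2 replicate 2 (0.0675), without D2-13B6 replicate 1 (0.0697) and without D2-13B6 replicate 2 (0.0689). H13 counts were not whole numbers in any library, so part of them was shared out by the authors' estimate; H13 overlaps exons of Gm26841 on the other strand and is uncertain to that extent. Fibroblast markers had the group order of H13 in their sum.

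Other growth regulators also differed. Plagl1 (ENSMUSG00000019817, chr10:13060504-13131694, plus strand), a paternally expressed zinc finger factor known to regulate other imprinted genes, was at 109.9, 128 and 119.8 CPM in B6 and 269, 266 and 269 CPM in B6-13D2. Plagl1 stood at 136, 139 and 159 CPM in D2 and 194, 192 and 192 CPM in D2-13B6. Both congenic lines were above both parental lines, B6-13D2 the most, while B6 and D2 were closer together without overlap. Plagl1 had a log2 fold change of 0.28 (SE 0.0541, adjusted p = 0.000231) in D2 against B6. For Plagl1 it was 1.17 (SE 0.0534, adjusted p = 2.52e-12) in B6-13D2 against B6 and 0.41 (SE 0.0525, adjusted p = 2.6e-06) in D2-13B6 against D2. Grb10, a maternally expressed adaptor that dampens insulin and IGF signalling, was at 174 ± 4.04 CPM (SD, n = 3) in B6 and 107 ± 1.58 in B6-13D2. Grb10 stood at 252 ± 0.919 CPM in D2 and 175 ± 4.56 in D2-13B6. Grb10 was higher in D2 than in B6 (log2 fold change 0.54, SE 0.0325, adjusted p = 2.16e-10), lower in B6-13D2 than in B6 (log2 fold change -0.70, SE 0.0335, adjusted p = 4.89e-12) and lower in D2-13B6 than in D2 (log2 fold change -0.53, SE 0.0321, adjusted p = 2.01e-10). The genes of chromosome 11, on which Grb10, Zrsr1 and Commd1 lie, had a median log2 fold change of 0.39 in D2-13B6 against D2 (1386 genes), which is 0.40 above that of all autosomal genes. Relative to that median Grb10 was further below, and its difference in D2-13B6 has the opposite sign to its chromosome.

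At the Gnas domain, Gnas, the stimulatory G protein subunit in its maternally expressed forms among others, was at 435 ± 21.1 CPM (SD, n = 3) in B6 and 268 ± 8.59 in B6-13D2. Gnas stood at 609.5 ± 19.6 CPM in D2 and 403 ± 17.1 in D2-13B6. Gnas had a log2 fold change of 0.49 (SE 0.042, adjusted p = 2.19e-08) in D2 against B6. For Gnas it was -0.70 (SE 0.0426, adjusted p = 1.38e-10) in B6-13D2 against B6 and -0.60 (SE 0.0419, adjusted p = 1.24e-09) in D2-13B6 against D2. Nespas, the paternally expressed antisense RNA of the domain, was at 2.64 ± 0.361 CPM (SD, n = 3) in B6 and 3.38 ± 0.377 in B6-13D2. Nespas stood at 3.99 ± 0.63 CPM in D2 and 5.22 ± 0.155 in D2-13B6. Nespas was higher in D2 than in B6 (log2 fold change 0.61, SE 0.152, adjusted p = 0.00214). It was also higher in D2-13B6 than in D2 (log2 fold change 0.38, SE 0.133, adjusted p = 0.0226). The latter call was lost without D2 replicate 1 (adjusted p = 0.0954), without D2-13B6 replicate 1 (0.0643) and without D2-13B6 replicate 3 (0.0506). In B6-13D2 against B6 it was not called (log2 fold change 0.36, SE 0.154, adjusted p = 0.053). Nespas was called there with DESeq2 (adjusted p = 0.0465), with RLE size factors (0.0242), with a CPM filter of 1 (0.0323), without B6 replicate 1 (0.0328), without D2 replicate 1 (0.0276), without D2 replicate 2 (0.0479) and without B6-13D2 replicate 3 (0.0278). In both congenic comparisons the log2 fold change was below 0 for Gnas and above 0 for Nespas. Exons of the pair overlap on opposite strands and the use of strand in counting is not given in the sources used here, so reads of one can be counted for the other.

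In the Dlk1-Meg3 domain the protein-coding gene Dlk1 differed more than the noncoding RNA Meg3 between the parental lines and between B6-13D2 and B6. Dlk1 (ENSMUSG00000040856, chr12:109452823-109463336, plus strand), a paternally expressed ligand-like protein of the Notch family that acts on growth and differentiation, was low, at 2.81, 4.62 and 4.67 CPM in B6 and 1.83, 1.54 and 1.66 CPM in B6-13D2. Dlk1 stood at 7.54, 7.31 and 8.15 CPM in D2 and 8.53, 8.99 and 9.05 CPM in D2-13B6. B6-13D2 was lowest and D2-13B6 highest, and no group overlapped another. Dlk1 was higher in D2 than in B6 at a log2 fold change of 0.92 (SE 0.139, adjusted p = 1.89e-05) and lower in B6-13D2 than in B6 at a log2 fold change of -1.27 (SE 0.172, adjusted p = 5.45e-06). D2-13B6 against D2 was not called (log2 fold change 0.21, SE 0.121, adjusted p = 0.145). Dlk1 was called there with only the libraries compared (adjusted p = 0.0433) and without B6 replicate 1 (0.049). Meg3 (ENSMUSG00000021268, chr12:109541001-109571726, plus strand), the maternally expressed noncoding RNA whose loss marks cell lines of poor developmental capacity, was at 332, 313 and 290.0 CPM in B6 and 275, 299 and 289 CPM in B6-13D2. Meg3 stood at 391, 334 and 328 CPM in D2 and 333, 349 and 355 CPM in D2-13B6. Meg3 ranged from 275 to 391 CPM over all libraries, which overlapped between B6 and D2 and between B6 and B6-13D2. Its difference in D2 against B6, a log2 fold change of 0.17 (SE 0.0594, adjusted p = 0.0191), was lost without B6 replicate 3 (adjusted p = 0.108) and without D2 replicate 1 (0.161, at a log2 fold change of 0.088). Meg3 was not called in B6-13D2 against B6 (log2 fold change -0.11, SE 0.0595, adjusted p = 0.109). Meg3 was called there with no filter (adjusted p = 0.0477) and without B6 replicate 3 (0.034), and it was not called in D2-13B6 against D2 (log2 fold change -0.02, SE 0.0589, adjusted p = 0.772).

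Rian and Mirg, maternally expressed RNAs downstream of Meg3 that host snoRNAs and miRNAs, were both higher in D2 than in B6 (log2 fold change 0.34, SE 0.0334, adjusted p = 1.17e-07 for Rian, and 0.38, SE 0.089, adjusted p = 0.00143 for Mirg). They were lower in D2-13B6 than in D2 (log2 fold change -0.44, SE 0.0332, adjusted p = 3.47e-09 for Rian, and -0.43, SE 0.085, adjusted p = 0.000338 for Mirg). They parted in B6-13D2 against B6, where Mirg was higher (log2 fold change 0.42, SE 0.0881, adjusted p = 0.000514) and Rian was not called (log2 fold change -0.04, SE 0.0335, adjusted p = 0.295). Mirg was at 8.21, 8.56 and 6.69 CPM in B6 and 10.7, 10.5 and 10.2 CPM in B6-13D2. Mirg stood at 10.5, 9.71 and 10.4 CPM in D2 and 7.70, 7.36 and 7.62 CPM in D2-13B6. Its D2 and B6-13D2 libraries, which both have the D2 segment, were above all B6 and D2-13B6 libraries. Rtl1, a paternally expressed gene of retroviral origin needed in placenta, was at 3.21 ± 0.889 CPM (SD, n = 3) in B6 and 3.37 ± 0.74 in B6-13D2. Rtl1 stood at 5.38 ± 1.11 CPM in D2 and 3.53 ± 0.407 in D2-13B6. Rtl1 was higher in D2 than in B6 (log2 fold change 0.77, SE 0.204, adjusted p = 0.00361). Its lower level in D2-13B6 against D2 (log2 fold change -0.62, SE 0.192, adjusted p = 0.0101) was lost without D2 replicate 2 (adjusted p = 0.0969).

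In the Kcnq1 domain, both placental regulators differed between groups. Phlda2 (ENSMUSG00000010760, chr7:143501545-143503150, minus strand), a maternally expressed restrainer of placental growth, was at 5.89, 5.88 and 7.07 CPM in B6 and 7.75, 7.99 and 7.85 CPM in B6-13D2. Phlda2 stood at 1.62, 1.06 and 1.64 CPM in D2 and 2.93, 2.32 and 2.76 CPM in D2-13B6. The groups with B6 background were above those with D2 background in all libraries. Phlda2 was lower in D2 than in B6 at a log2 fold change of -2.17 (SE 0.16, adjusted p = 2.99e-09) and higher in D2-13B6 than in D2 at a log2 fold change of 0.93 (SE 0.172, adjusted p = 0.000159). Its difference in B6-13D2 against B6, a log2 fold change of 0.32 (SE 0.126, adjusted p = 0.0343), was lost without B6 replicate 1 (adjusted p = 0.109), without B6 replicate 2 (0.109), without B6-13D2 replicate 1 (0.0615), without B6-13D2 replicate 2 (0.0797) and without B6-13D2 replicate 3 (0.0688). Ascl2 (ENSMUSG00000009248, chr7:142966829-142969264, minus strand), a maternally expressed transcription factor of trophoblast, was at 3.38, 3.57 and 3.09 CPM in B6 and 8.62, 9.16 and 8.72 CPM in B6-13D2. Ascl2 stood at 2.75, 2.42 and 2.55 CPM in D2 and 6.39, 5.92 and 7.35 CPM in D2-13B6. Both congenic lines were above both parental lines. Ascl2 was higher in B6-13D2 than in B6 at a log2 fold change of 1.40 (SE 0.11, adjusted p = 4.81e-09) and in D2-13B6 than in D2 at a log2 fold change of 1.35 (SE 0.114, adjusted p = 1.51e-08). Its lower level in D2 than in B6, a log2 fold change of -0.39 (SE 0.131, adjusted p = 0.0169), was lost with DESeq2 (adjusted p = 0.0954), with only the libraries compared (0.0584), without B6 replicate 2 (0.0652) and without D2 replicate 2 (0.0748). The 6 trophoblast markers summed to 53.1 to 60.8 CPM in B6, 84 to 86.6 in B6-13D2, 42 to 43.9 in D2 and 22.9 to 24.5 in D2-13B6; Elf5 among them was too low to test. Tfap2c was the most abundant of them, at 41.0 CPM in B6, 66.0 in B6-13D2, 31.6 in D2 and 11.8 in D2-13B6. Cdx2 (4.49 CPM) and Hand1 (2.24 CPM) were instead at their highest in D2-13B6, and Hand1 was at its lowest in B6-13D2 (0.129 CPM). The markers thus did not share one order, and their part was not tested.

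Kcnq1ot1 (ENSMUSG00000101609, chr7:143203458-143296549, minus strand), the paternally expressed noncoding RNA that silences the domain in cis, was at 18.8, 15.6 and 12.2 CPM in B6 and 18.4, 12.8 and 19.9 CPM in B6-13D2. Kcnq1ot1 stood at 27.99, 28.3 and 31.4 CPM in D2 and 42.2, 40.6 and 31.1 CPM in D2-13B6. D2 and D2-13B6 were above B6 and B6-13D2, with overlap within each background. Kcnq1ot1 was higher in D2 than in B6 at a log2 fold change of 0.91 (SE 0.152, adjusted p = 5.72e-05) and not called in B6-13D2 against B6 (log2 fold change 0.13, SE 0.161, adjusted p = 0.517). Its higher level in D2-13B6 against D2, a log2 fold change of 0.39 (SE 0.133, adjusted p = 0.0191), was lost with DESeq2 (adjusted p = 0.0982), without D2 replicate 2 (0.0686), without D2-13B6 replicate 1 (0.099) and without D2-13B6 replicate 2 (0.0774). Its model spans a stretch unspliced in the annotation, and its counts were not whole in 9 of 12 libraries. Cdkn1c (ENSMUSG00000037664, chr7:143458339-143461050, minus strand), a maternally expressed inhibitor of cyclin-dependent kinases, was at 5.18, 4.99 and 4.20 CPM in B6 and 2.46, 2.48 and 2.53 CPM in B6-13D2. Cdkn1c stood at 4.00, 5.20 and 3.78 CPM in D2 and 3.81, 4.15 and 3.20 CPM in D2-13B6. B6-13D2 was below all other libraries, at a log2 fold change of -0.94 (SE 0.154, adjusted p = 4.3e-05) against B6, and the other comparisons were not called (log2 fold change -0.13, SE 0.145, adjusted p = 0.464 for D2 against B6 and -0.23, SE 0.142, adjusted p = 0.177 for D2-13B6 against D2).

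Slc22a18, a maternally expressed transporter of the organic cation family, was at 2.06, 1.80 and 2.31 CPM in B6 and 2.98, 2.92 and 3.10 CPM in B6-13D2. Slc22a18 stood at 1.37, 1.31 and 0.228 CPM in D2 and 0.713, 0.941 and 0.851 CPM in D2-13B6. D2 replicate 3 was far below the other D2 libraries. Slc22a18 was lower in D2 than in B6 at a log2 fold change of -1.02 (SE 0.333, adjusted p = 0.0134). Without D2 replicate 3 that value was -0.62 (adjusted p = 0.0176), still called but no longer past 1 in size. It was not called in B6-13D2 against B6 (log2 fold change 0.54, SE 0.293, adjusted p = 0.126). Slc22a18 was called there with no filter (adjusted p = 0.0332), with only the libraries compared (0.00972) and without D2 replicate 3 (0.0116). Nor was it called in D2-13B6 against D2 (log2 fold change -0.28, SE 0.357, adjusted p = 0.533), but it was without D2 replicate 3 (log2 fold change -0.68, adjusted p = 0.0157). Cd81, a maternally expressed tetraspanin at the edge of the domain, was at 373 ± 12.1 CPM (SD, n = 3) in B6 and 309 ± 12.5 in B6-13D2. Cd81 stood at 401 ± 11.3 CPM in D2 and 316 ± 2.01 in D2-13B6. Cd81 was lower in both congenic lines (log2 fold change -0.27, SE 0.0367, adjusted p = 4.5e-06 against B6 and -0.34, SE 0.0365, adjusted p = 2.91e-07 against D2). Its small difference in D2 against B6, a log2 fold change of 0.10 (SE 0.0365, adjusted p = 0.0225), was lost without B6 replicate 1 (adjusted p = 0.125), without D2 replicate 1 (0.0662) and without D2 replicate 2 (0.0864). With RLE size factors it was 0.16 (adjusted p = 0.0014). Tssc4, maternally expressed and next to Cd81, was called lower in B6-13D2 than in B6 (log2 fold change -0.20, SE 0.0687, adjusted p = 0.0163). Tssc4 lost that call with DESeq2 (adjusted p = 0.118), with RLE size factors (0.091), without B6 replicate 2 (0.0534) and without B6-13D2 replicate 1 (0.0828). The same gene was lower in D2-13B6 than in D2 (log2 fold change -0.18, SE 0.0654, adjusted p = 0.0248). Tssc4 lost that call without D2 replicate 1 (log2 fold change -0.088, adjusted p = 0.244), without D2-13B6 replicate 1 (0.0539) and without D2-13B6 replicate 3 (0.0715). D2 against B6 was not called for Tssc4 (log2 fold change 0.12, SE 0.0676, adjusted p = 0.152). Tssc4 was called there with RLE size factors (adjusted p = 0.0426), with a CPM filter of 1 (0.0401) and without D2 replicate 3 (0.0179). Tssc4 overlaps Trpm5 on the opposite strand and its counts were not whole.

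Peg3 and its neighbour Usp29 were higher in each congenic line than in its background line. Peg3 (ENSMUSG00000002265, chr7:6703892-6730431, minus strand), a paternally expressed zinc finger factor, was at 124, 129 and 123 CPM in B6 and 179.5, 177 and 179 CPM in B6-13D2. Peg3 stood at 183, 180.4 and 214 CPM in D2 and 232, 227 and 229 CPM in D2-13B6. B6 was below all others and D2-13B6 above them. Peg3 had a log2 fold change of 0.62 (SE 0.0503, adjusted p = 1.06e-08) in D2 against B6. For Peg3 it was 0.51 (SE 0.0503, adjusted p = 9.79e-08) in B6-13D2 against B6 and 0.25 (SE 0.0486, adjusted p = 0.000232) in D2-13B6 against D2. Usp29, a paternally expressed deubiquitinase gene that starts beside Peg3 on the other strand, was at 1.46 ± 0.314 CPM (SD, n = 3) in B6 and 2.59 ± 0.394 in B6-13D2. Usp29 stood at 1.49 ± 0.176 CPM in D2 and 2.99 ± 0.122 in D2-13B6. Usp29 was higher in B6-13D2 than in B6 (log2 fold change 0.82, SE 0.191, adjusted p = 0.00122) and in D2-13B6 than in D2 (log2 fold change 0.98, SE 0.18, adjusted p = 0.000154), and was not called in D2 against B6 (log2 fold change 0.05, SE 0.206, adjusted p = 0.85). Zim1 (ENSMUSG00000002266, chr7:6671269-6696450, minus strand), a maternally expressed zinc finger gene, was at 0.483, 0.42 and 1.03 CPM in B6 and 0.485, 0.839 and 0.453 CPM in B6-13D2. Zim1 stood at 1.08, 1.64 and 1.64 CPM in D2 and 1.92, 2.44 and 1.84 CPM in D2-13B6, from 10 to 88 counts per library. Zim1 was higher in D2 than in B6 at a log2 fold change of 1.18 (SE 0.331, adjusted p = 0.00529), and the congenic comparisons were not called (log2 fold change -0.11, SE 0.373, adjusted p = 0.819 against B6 and 0.50, SE 0.272, adjusted p = 0.128 against D2).

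On chromosome 6, Mest (ENSMUSG00000051855, chr6:30723547-30748465, plus strand), a paternally expressed hydrolase-like gene whose promoter is shown above, was at 31.8, 32.2 and 31.1 CPM in B6 and 24.5, 21.5 and 25.4 CPM in B6-13D2. Mest stood at 80.9, 82.5 and 89.8 CPM in D2 and 74.2, 73.9 and 78.2 CPM in D2-13B6. Both groups with D2 background were above both with B6 background in all libraries. Mest was higher in D2 than in B6 at a log2 fold change of 1.41 (SE 0.0554, adjusted p = 6.15e-13), and lower in B6-13D2 than in B6 at a log2 fold change of -0.41 (SE 0.0618, adjusted p = 1.54e-05) and in D2-13B6 than in D2 at a log2 fold change of -0.16 (SE 0.0496, adjusted p = 0.0103). Copg2, a coat protein gene that overlaps the end of Mest on the other strand and is maternally expressed in some tissues, was lower in D2 than in B6 (log2 fold change -0.21, SE 0.0493, adjusted p = 0.00159), with the congenic comparisons not called (log2 fold change 0.08, SE 0.0484, adjusted p = 0.163 and 0.06, SE 0.0484, adjusted p = 0.332). Copg2 in B6-13D2 against B6 was called with DESeq2 (adjusted p = 0.0179), with RLE size factors (0.0166) and with a CPM filter of 1 (0.0368). Counts of this pair were not whole in any library, so the division of reads between them is uncertain.

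Peg10 and Sgce are paternally expressed from a shared start region, one a gene of retroviral origin needed in placenta and the other a sarcoglycan. Peg10 was at 121 ± 4.08 CPM (SD, n = 3) in B6 and 168 ± 8.67 in B6-13D2. Peg10 stood at 134 ± 8.13 CPM in D2 and 179.8 ± 1.77 in D2-13B6. Peg10 was higher in B6-13D2 than in B6 (log2 fold change 0.47, SE 0.0458, adjusted p = 7.66e-08) and in D2-13B6 than in D2 (log2 fold change 0.43, SE 0.045, adjusted p = 2.63e-07). Sgce was at 9.14 ± 0.604 CPM (SD, n = 3) in B6 and 7.38 ± 0.535 in B6-13D2. Sgce stood at 13.6 ± 0.474 CPM in D2 and 7.75 ± 0.501 in D2-13B6. Sgce was lower in D2-13B6 than in D2 (log2 fold change -0.81, SE 0.0787, adjusted p = 9.08e-08) and in B6-13D2 than in B6 (log2 fold change -0.31, SE 0.0864, adjusted p = 0.0051). Sgce lost that call with DESeq2 (adjusted p = 0.0584). In D2 against B6 Sgce was higher (log2 fold change 0.57, SE 0.0809, adjusted p = 9.87e-06) and Peg10 was higher (log2 fold change 0.15, SE 0.0463, adjusted p = 0.012), Peg10 not so without D2 replicate 3 (adjusted p = 0.0637). Hence these neighbours from one start region moved in opposite directions in both congenic comparisons. Ppp1r9a, a maternally expressed actin-binding scaffold protein of neurons, was lower in D2 than in B6 (log2 fold change -0.77, SE 0.0856, adjusted p = 4.83e-07) and higher in B6-13D2 than in B6 (log2 fold change 0.47, SE 0.0769, adjusted p = 4.53e-05). Its call in D2-13B6 against D2, a log2 fold change of 0.21 (SE 0.0859, adjusted p = 0.0456), was lost with DESeq2 (adjusted p = 0.0575), with a CPM filter of 1 (0.0924), with the replicate block (0.063), with only the libraries compared (0.0719), without B6 replicate 2 (0.0553), without D2 replicate 1 (0.138), without D2 replicate 2 (0.223), without B6-13D2 replicate 1 (0.0563), without B6-13D2 replicate 2 (0.0547), without B6-13D2 replicate 3 (0.057), without D2-13B6 replicate 2 (0.165) and without D2-13B6 replicate 3 (0.075). Without D2 replicate 3 it was 0.32 (adjusted p = 0.00215). Asb4, a maternally expressed gene of the same domain with 12 to 45 counts per library, was not called in D2 against B6 (log2 fold change -0.35, SE 0.311, adjusted p = 0.342), B6-13D2 against B6 (log2 fold change 0.38, SE 0.291, adjusted p = 0.278) or D2-13B6 against D2 (log2 fold change -0.62, SE 0.324, adjusted p = 0.113); the last was called without D2 replicate 3 (adjusted p = 0.0486).

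In the Snrpn domain, the region of Prader-Willi and Angelman syndromes in human, Snrpn, a paternally expressed splicing protein, was at 62.5 ± 2.10 CPM (SD, n = 3) in B6 and 70.5 ± 3.39 in B6-13D2. Snrpn stood at 92.2 ± 1.71 CPM in D2 and 106 ± 0.825 in D2-13B6. Snrpn had a log2 fold change of 0.56 (SE 0.0408, adjusted p = 2.49e-09) in D2 against B6. For Snrpn it was 0.17 (SE 0.0413, adjusted p = 0.00164) in B6-13D2 against B6 and 0.20 (SE 0.0385, adjusted p = 0.000304) in D2-13B6 against D2, with counts shared with Gm38393 and Snurf on the same strand. Ndn, a paternally expressed regulator of growth and survival in neurons, was at 21.7 ± 0.541 CPM (SD, n = 3) in B6 and 10.9 ± 0.342 in B6-13D2. Ndn stood at 29.3 ± 2.96 CPM in D2 and 18.1 ± 0.44 in D2-13B6. Ndn was higher in D2 than in B6 (log2 fold change 0.44, SE 0.0651, adjusted p = 1.63e-05) and lower in B6-13D2 than in B6 (log2 fold change -0.99, SE 0.0727, adjusted p = 1.87e-09) and in D2-13B6 than in D2 (log2 fold change -0.70, SE 0.0637, adjusted p = 3.72e-08). Snrpn and Ndn, both paternally expressed, thus moved in opposite directions in both congenic comparisons. Ube3a, a ubiquitin ligase with maternal expression known from neurons, was lower in B6-13D2 than in B6 (log2 fold change -0.20, SE 0.0413, adjusted p = 0.000548) and not called in D2 against B6 (log2 fold change -0.02, SE 0.0411, adjusted p = 0.756) or D2-13B6 against D2 (log2 fold change -0.08, SE 0.0402, adjusted p = 0.0852), the last called with a CPM filter of 1 (adjusted p = 0.013). Magel2, with 5 to 26 counts per library, was not called in the same 3 comparisons, with log2 fold changes of -0.20 (SE 0.52), -0.29 (SE 0.52) and -0.03 (SE 0.5) in that order.

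Nnat (ENSMUSG00000067786, chr2:157560078-157562522, plus strand), a paternally expressed membrane proteolipid that lies inside an intron of Blcap, was at 3.56, 2.85 and 2.96 CPM in B6 and 8.03, 7.52 and 6.79 CPM in B6-13D2. Nnat stood at 7.08, 6.23 and 6.01 CPM in D2 and 7.02, 5.89 and 5.27 CPM in D2-13B6. B6 was below all others, and the other groups overlapped in part. Nnat was higher in D2 than in B6 at a log2 fold change of 1.04 (SE 0.136, adjusted p = 3.5e-06) and in B6-13D2 than in B6 at a log2 fold change of 1.26 (SE 0.133, adjusted p = 2.42e-07), and not called in D2-13B6 against D2 (log2 fold change -0.08, SE 0.117, adjusted p = 0.588). Blcap (ENSMUSG00000067787, chr2:157556362-157571274, minus strand), with maternal expression of some transcripts, was at 34.3, 35.5 and 38.1 CPM in B6 and 25.7, 28.5 and 28.6 CPM in B6-13D2. Blcap stood at 45.3, 44.9 and 44.1 CPM in D2 and 40.3, 41.2 and 40.5 CPM in D2-13B6. B6-13D2 was lowest and D2 highest, and no group overlapped another. Blcap was higher in D2 than in B6 (log2 fold change 0.32, SE 0.0503, adjusted p = 3.33e-05) and lower in B6-13D2 than in B6 (log2 fold change -0.38, SE 0.0524, adjusted p = 5.91e-06). Its lower level in D2-13B6 against D2 (log2 fold change -0.14, SE 0.0481, adjusted p = 0.0214) was lost with no filter (adjusted p = 0.0796), without D2 replicate 1 (0.0881), without D2 replicate 2 (0.0564), without D2-13B6 replicate 1 (0.0664) and without D2-13B6 replicate 3 (0.0518). In B6-13D2 the pair thus moved apart, Nnat higher and Blcap lower than in B6.

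Zrsr1 (ENSMUSG00000044068, chr11:22972005-22976496, plus strand), a paternally expressed retrogene of a splicing factor inside Commd1, was at 13.9, 16.5 and 14.6 CPM in B6 and 18.97, 17.9 and 18.98 CPM in B6-13D2. Zrsr1 stood at 16.7, 18.4 and 19.5 CPM in D2 and 31.2, 33.1 and 32.2 CPM in D2-13B6. D2-13B6 was above all other libraries. Zrsr1 had a log2 fold change of 0.27 (SE 0.0722, adjusted p = 0.00338) in D2 against B6. For Zrsr1 it was 0.31 (SE 0.0715, adjusted p = 0.00129) in B6-13D2 against B6 and 0.82 (SE 0.0639, adjusted p = 4.82e-09) in D2-13B6 against D2. Commd1 (ENSMUSG00000051355, chr11:22896136-22982382, minus strand), a maternally biased gene of copper handling, was at 37.9, 37.6 and 41.5 CPM in B6 and 40.8, 45.2 and 42.2 CPM in B6-13D2. Commd1 stood at 36.1, 36.6 and 35.8 CPM in D2 and 44.5, 43.3 and 46.6 CPM in D2-13B6. D2 was below every other library of the set. Commd1 was higher in D2-13B6 than in D2 at a log2 fold change of 0.31 (SE 0.0504, adjusted p = 4.96e-05), and not called in D2 against B6 (log2 fold change -0.11, SE 0.0527, adjusted p = 0.0905). Its difference in B6-13D2 against B6, a log2 fold change of 0.13 (SE 0.0516, adjusted p = 0.0344), was lost without B6 replicate 1 (adjusted p = 0.115), without B6 replicate 2 (0.127), without B6-13D2 replicate 2 (0.168) and without B6-13D2 replicate 3 (0.0507). The chromosome 11 median of 0.39 in D2-13B6 against D2 stands beside both values, so Commd1 lay below it and Zrsr1 above it. The pair overlaps on opposite strands, and Commd1 counts were not whole in any library.

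Among members without a listed neighbour, Slc38a4 was at 171 ± 4.37 CPM (SD, n = 3) in B6 and 208 ± 2.05 in B6-13D2. Slc38a4 stood at 114 ± 2.38 CPM in D2 and 196 ± 2.73 in D2-13B6. Slc38a4 was lower in D2 than in B6 (log2 fold change -0.58, SE 0.0332, adjusted p = 1.16e-10). It was higher in B6-13D2 than in B6 (log2 fold change 0.29, SE 0.0323, adjusted p = 4.8e-07) and in D2-13B6 than in D2 (log2 fold change 0.78, SE 0.0327, adjusted p = 1.88e-12). Impact, a paternally expressed regulator of translation, was higher in D2 than in B6 (log2 fold change 0.48, SE 0.0352, adjusted p = 2.41e-09) and lower in B6-13D2 than in B6 (log2 fold change -0.19, SE 0.0359, adjusted p = 0.000159), where the genes of chromosome 18 had a median of -0.15, that is -0.12 relative to all autosomal genes. The lower level of Impact in D2-13B6 against D2 (log2 fold change -0.10, SE 0.0342, adjusted p = 0.0188) was lost with no filter (adjusted p = 0.143), without D2 replicate 2 (0.104), without D2-13B6 replicate 1 (0.0792) and without D2-13B6 replicate 2 (0.0726). Inpp5f, a phosphoinositide phosphatase gene with a paternally expressed form, was lower in B6-13D2 than in B6 (log2 fold change -0.51, SE 0.075, adjusted p = 1.26e-05) and in D2-13B6 than in D2 (log2 fold change -0.39, SE 0.0695, adjusted p = 0.000109). For D2 against B6 it was not called (log2 fold change 0.17, SE 0.0714, adjusted p = 0.0533). Inpp5f was called there with DESeq2 (adjusted p = 0.0293), with RLE size factors (0.013), with a CPM filter of 1 (0.0134), with only the libraries compared (0.0411) and without D2-13B6 replicate 3 (0.0298). Zdbf2, a paternally expressed gene that acts on growth through the hypothalamus, was higher in D2 than in B6 (log2 fold change 0.19, SE 0.0485, adjusted p = 0.00286) and in B6-13D2 than in B6 (log2 fold change 0.34, SE 0.0482, adjusted p = 9.03e-06). D2-13B6 against D2 was not called for Zdbf2 (log2 fold change 0.11, SE 0.0473, adjusted p = 0.0643). Zdbf2 was called there with no filter (adjusted p = 0.0115), without D2 replicate 3 (0.00417) and without D2-13B6 replicate 3 (0.0296).

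Nap1l5, a paternally expressed retrogene of the nucleosome assembly family, was at 0.9 ± 0.0938 CPM (SD, n = 3) in B6 and 0.504 ± 0.0613 in B6-13D2. Nap1l5 stood at 1.24 ± 0.232 CPM in D2 and 1.68 ± 0.127 in D2-13B6. Nap1l5 was lower in B6-13D2 than in B6 (log2 fold change -0.83, SE 0.266, adjusted p = 0.0125). Nap1l5 lost that call with DESeq2 (adjusted p = 0.0584) and without B6 replicate 2 (0.052). The other comparisons of Nap1l5 were not called (log2 fold change 0.44, SE 0.237, adjusted p = 0.117 for D2 against B6 and 0.45, SE 0.211, adjusted p = 0.0806 for D2-13B6 against D2), the latter called without D2 replicate 3 (adjusted p = 0.0457). Trappc9, a maternally biased gene of vesicle transport, was lower in D2-13B6 than in D2 (log2 fold change -0.18, SE 0.0564, adjusted p = 0.0108). Trappc9 lost that call without D2 replicate 1 (adjusted p = 0.0853) and without D2-13B6 replicate 1 (0.0641). It was not called in B6-13D2 against B6 (log2 fold change -0.02, SE 0.0565, adjusted p = 0.817) or D2 against B6 (log2 fold change -0.13, SE 0.0573, adjusted p = 0.0608), the latter called without B6 replicate 2 (adjusted p = 0.0458) and without D2 replicate 1 (0.0316).

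The reciprocal lines ask whether a difference goes with the allele of the chromosome 13 segment on both backgrounds. Both congenic comparisons called 28 of 45 members, against 39.6% of all genes. Of these, 2 went with the segment's allele, against 7.33% of all genes and 18.5% of genes called in both. H19 was lower with the D2 segment, lower in B6-13D2 than in B6 and higher in D2-13B6 than in D2, and Mirg was higher with the D2 segment, with the values given above. H19 was however higher in D2 than in B6, so its difference between the parental lines has the opposite sign to that of the segment. Without D2 replicate 3 the count was 4, and the calls of H19 and Mirg in both congenic comparisons held under each alternative run except the fold threshold of 1.

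More members were higher, or lower, in both congenic lines than in the background line of each. Higher in both were 12 members, namely Peg3, Usp29, Peg10, Ppp1r9a, Snrpn, Phlda2, Ascl2, Zrsr1, Commd1, Plagl1, Mcts2 and Slc38a4, against 12.4% of all genes. Lower in both were 14 members, namely Igf2, Sgce, Mest, Ndn, Cd81, Tssc4, Grb10, Blcap, Impact, Igf2r, Airn, Gnas, H13 and Inpp5f, against 19.8% of all genes. Some of these memberships rest on calls lost under alternatives other than the fold threshold, as given above. Such are those of Ppp1r9a, Phlda2, Commd1 and Mcts2 among the higher, and Sgce, Tssc4, Blcap, Impact and Airn among the lower. The contrast of both congenic with both parental lines tests whether the segment effect differs between backgrounds, and 36 of 45 members were called in it, 17 above and 19 below 0, against 64.5% of all genes called, 31.1% above and 33.4% below. A log2 difference of 1 in size was passed by 17 members and by 25.6% of all genes. Column names of all 6 congenic libraries begin with a digit that those of the parental libraries do not have, so what all congenic libraries share cannot be told apart from the segments.

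The order of the groups was compared with that of the summed fibroblast markers, a description chosen after the values were seen. From lowest to highest, that sum had the order B6-13D2, D2-13B6, B6, D2. The same order of group means held for 10 of 45 members (22.2%), namely Igf2, Sgce, Ndn, Cd81, Tssc4, Igf2r, Airn, Gnas, H13 and Inpp5f, and for 14.8% of all genes tested. The reverse order held for Ascl2 and Slc38a4, 2 members (4.44%), and for 5.45% of all genes. Of the 9 markers themselves, 3 had the order of the sum, Col1a1, Col1a2 and Thy1, and Col1a1 and Col1a2 were the most abundant. Col3a1, Postn, Twist2 and Lum instead had the order B6-13D2, B6, D2-13B6, D2 from lowest to highest. Among the members, that other order of group means held for Meg3, Mest, Grb10, Blcap and Impact. In their sum the neural markers were also lowest in B6-13D2 (91.1 to 94.9 CPM) and highest in D2 (137 to 144). Their 103 to 108 CPM in D2-13B6 overlapped with 106 to 110 in B6. Tubb3 and Nes made up most of that sum, and Sox1 in the same list was higher in B6-13D2 than in B6 (log2 fold change 1.22, SE 0.133, adjusted p = 3.38e-07).

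**Figure D3:**
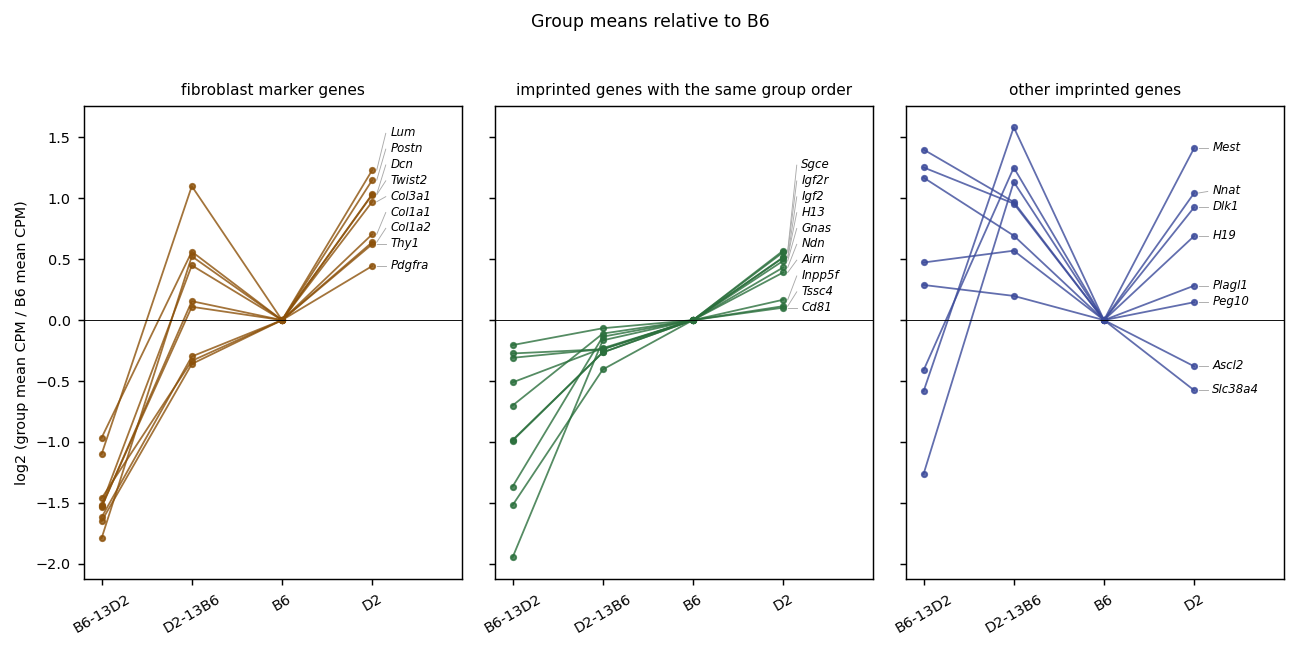
Group means relative to B6 on a log2 scale, as log2 of the ratio of mean CPM. Shown are the 9 fibroblast markers and the 10 imprinted genes whose groups have the order of the summed markers (chosen by that order). Of the other imprinted genes, only H19, Dlk1, Mest, Plagl1, Ascl2, Slc38a4, Nnat and Peg10 are shown, picked by name. Meg3, Grb10, Blcap and Impact, not shown, were also lowest in B6-13D2 and highest in D2. Lines join the 4 groups of 1 gene and stand for no sequence in time; Plagl1, Ascl2 and Nnat lie above 1 in B6-13D2, where all 9 fibroblast markers lie below 0.

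A ratio of oppositely imprinted neighbours within a library does not depend on library size. The log2 ratio of H19 to Igf2 counts was -2.24, -2.40 and -2.21 in B6 and -1.45, -1.56 and -1.49 in B6-13D2. For H19 and its neighbour it was -2.12, -2.19 and -2.01 in D2 and -0.55, -0.54 and -0.59 in D2-13B6. Every library of each congenic line lay above those of its background line. The log2 ratio of H13 to Mcts2 was 3.18, 3.25 and 3.18 in B6 and 1.37, 1.00 and 1.22 in B6-13D2. For H13 and its neighbour it was 3.64, 3.57 and 3.44 in D2 and 2.50, 2.46 and 2.44 in D2-13B6, lower in both congenic lines and lowest in B6-13D2. For Kcnq1ot1 to Cdkn1c it was 1.86, 1.64 and 1.54 in B6 and 2.90, 2.37 and 2.98 in B6-13D2. For Kcnq1ot1 and its neighbour it was 2.81, 2.45 and 3.05 in D2 and 3.47, 3.29 and 3.28 in D2-13B6, lowest in B6 and highest in D2-13B6. The ratio of Meg3 to Dlk1 was highest in B6-13D2, with a mean of 7.42 ± 0.186 (SD, n = 3), against 6.31 ± 0.503 in B6, 5.51 ± 0.183 in D2 and 5.29 ± 0.009 in D2-13B6. Libraries of the compared groups overlapped for Peg3 to Zim1 in all 3 comparisons, and for Igf2r to Airn in D2 against B6 and D2-13B6 against D2. They also overlapped for Blcap to Nnat in D2-13B6 against D2 and for Commd1 to Zrsr1 in B6-13D2 against B6. An exact two-sided permutation test of 3 against 3 libraries cannot go below 0.10, so these 24 comparisons of 8 pairs are a description with no test at 0.05.

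**Figure D4:**
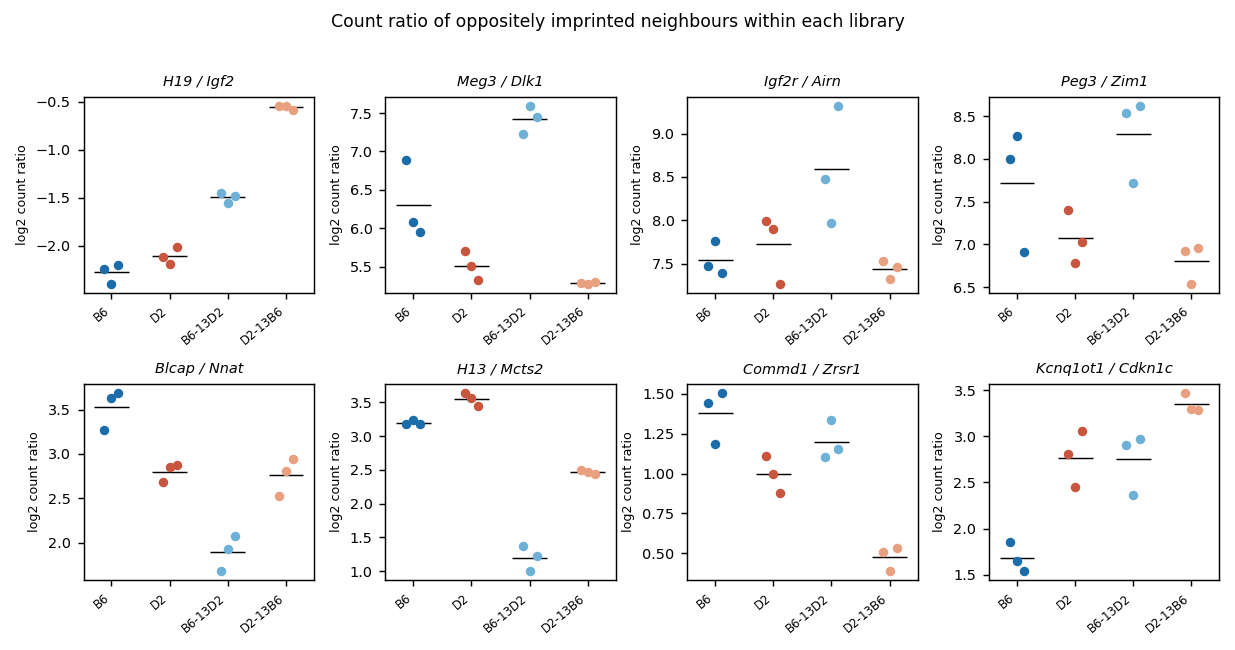
Log2 ratio of the counts of 8 pairs of oppositely imprinted neighbours in each library, with 1 point per library and a line at the mean of each group of 3. The axes differ between panels and do not start at 0; H19 to Igf2 has means of -2.28 in B6 and -0.56 in D2-13B6, and H13 to Mcts2 has means of 3.20 in B6 and 1.20 in B6-13D2.

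Genes known to set, keep or erase imprints were counted in the same way. Of 15 such genes, all tested, 2 were higher and 11 lower in D2 than in B6, where 60% of all genes were called. The 11 include Tet1 and Tet2, which act in the removal of methylation. Their log2 fold changes were -0.11 (SE 0.0455, adjusted p = 0.0402) for Tet1 and -1.01 (SE 0.0435, adjusted p = 2.21e-12) for Tet2. In B6-13D2 against B6, 4 were higher and 5 lower, close to the 58.3% called of all genes. In D2-13B6 against D2, 10 were higher and 1 lower, with 57.3% of all genes called. Tet2 was among the 5 lower in B6-13D2 and among the 10 higher in D2-13B6. Zfp57, the zinc finger protein named above, was at 508 ± 1.98 CPM (SD, n = 3) in B6 and 348 ± 10.4 in B6-13D2. Zfp57 stood at 272 ± 17.2 CPM in D2 and 432 ± 6.69 in D2-13B6. It was lower in D2 than in B6 (log2 fold change -0.90, SE 0.0401, adjusted p = 3.42e-12), lower in B6-13D2 than in B6 (log2 fold change -0.55, SE 0.0397, adjusted p = 1.62e-09) and higher in D2-13B6 than in D2 (log2 fold change 0.67, SE 0.0399, adjusted p = 1.59e-10). Dppa3, which protects maternal methylation in the egg and early embryo, was lower in D2 than in B6 (log2 fold change -1.94, SE 0.117, adjusted p = 2.16e-10), in B6-13D2 than in B6 (log2 fold change -0.99, SE 0.107, adjusted p = 3.05e-07) and in D2-13B6 than in D2 (log2 fold change -0.79, SE 0.144, adjusted p = 0.000148). Dnmt3l, the cofactor of de novo methylation, was higher in the same comparisons (log2 fold change 1.10, SE 0.0424, adjusted p = 4.48e-13, 0.69, SE 0.0426, adjusted p = 1.73e-10 and 0.46, SE 0.0397, adjusted p = 2.26e-08). Uhrf1, which brings the maintenance methyltransferase DNMT1 to replicating DNA, was lower in D2 than in B6 (log2 fold change -0.41, SE 0.0353, adjusted p = 2.02e-08) and higher in B6-13D2 than in B6 (log2 fold change 0.68, SE 0.0351, adjusted p = 1.55e-11) and in D2-13B6 than in D2 (log2 fold change 0.17, SE 0.0352, adjusted p = 0.000547). Trim28, the partner of ZFP57, was not called in D2 against B6, B6-13D2 against B6 or D2-13B6 against D2, with log2 fold changes of 0.04 (SE 0.0294), 0.01 (SE 0.0294) and 0.04 (SE 0.0294).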

How the data were processed

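The authors deposited expected counts per Ensembl gene, estimates that need not be whole, from EMASE, which divides reads mapping to several places, per the file's name. The submitters' processing notes name Bowtie 1.0.0, edgeR 3.34.1 and mm10; annotation release and strand are not given in the sources used here. Symbols and GRCm38 positions came from GENCODE M21 (42462 of 43346 IDs matched, 884 with 0.361% of reads did not).

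After rounding, edgeR 4.0.16 in R 4.3.3 was used, with its filterByExpr at a minimum count of 10, TMM, a quasi-likelihood fit of 4 group means over all 12 libraries, and Benjamini-Hochberg adjustment over 17148 genes at 0.05. SE is the absolute log2 fold change over the square root of F. CPM use TMM-scaled library sizes. Within-group pairs differed beyond sampling noise (chi-square per degree of freedom 1.96 to 8.62). Per-library values are given for called members with a log2 fold change of at least 1 in size and a mean of at least 1 CPM, and for 8 pairs of oppositely imprinted neighbours. Correlations between members are not given because libraries form 4 separate groups. Alternatives were DESeq2 1.42.0, RLE size factors, other filters, a fold threshold, a replicate block, a fit of the compared libraries alone, and dropping each library in turn. The code was checked on simulated counts with a spread that was set and not taken from these data, which does not test the p-values given here. Members and lists were chosen with earlier results of these data known.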

Additional observations from a re-analysis of the deposited data

Results flagged for a closer look

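For 36 imprinted genes, the difference between lines with the D2 and the B6 segment was itself unlike on the B6 and D2 backgrounds. They were called in edgeR's test of that difference, with 64.5% of all genes called in the same test. The value is the log2 fold change of B6-13D2 against B6 minus that of D2 against D2-13B6, which equals both congenic minus both parental lines, so these 2 readings cannot be told apart. Above 1 on the log2 scale were the differences of 2.750 for Ascl2, 1.805 for Usp29, 1.582 for Plagl1, 1.258 for Phlda2, 1.176 for Nnat, 1.129 for Zrsr1 and 1.065 for Slc38a4. Of these, Ascl2 and Phlda2 are maternally and the other 5 paternally expressed. Smaller positive log2 differences were 0.898 for Peg10, 0.763 for Peg3, 0.738 for Nespas, 0.678 for Ppp1r9a, 0.653 for Mcts2, 0.514 for Kcnq1ot1, 0.445 for Zdbf2, 0.439 for Commd1, 0.367 for Snrpn and 0.310 for H19. The 1386 genes of chromosome 11 had a median of 0.41 in this test, 0.41 above all autosomal genes, so Commd1 was close to its chromosome and Zrsr1, on the same chromosome, would lie below 1 relative to it.

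Below -1 on the log2 scale were -2.461 for Airn, -2.437 for H13, -2.019 for Igf2, -1.807 for Igf2r, -1.691 for Ndn, -1.298 for Gnas, -1.224 for Grb10, -1.175 for Cdkn1c, -1.118 for Sgce and -1.053 for Dlk1. Airn, Igf2, Ndn, Sgce and Dlk1 among them are paternally and the other 5 maternally expressed, so paternally expressed genes stood 5 above 1 and 5 below -1. Smaller negative log2 differences were -0.903 for Inpp5f, -0.615 for Cd81, -0.575 for Mest, -0.519 for Blcap, -0.479 for Rian, -0.386 for Tssc4, -0.293 for Impact (chromosome 18, whose median was -0.21), -0.279 for Ube3a and -0.198 for Trappc9. The summed fibroblast markers were also lower in each congenic line than in its background line, and their part was not tested. The call of Kcnq1ot1 was lost with DESeq2 (adjusted p = 0.0699) and without any one of 8 of the 12 libraries. That of Trappc9 was lost with DESeq2 (adjusted p = 0.229), with RLE size factors (0.158), with no filter (0.126) and without any one of 8 of the 12 libraries, and its value was -0.13 without D2 replicate 1.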

How the results depend on the processing

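Counts of imprinted genes called stayed within 1.5 times of the reported ones under RLE size factors, DESeq2, a CPM filter of 1, no filter and a fit of only the libraries compared, at 33 to 36 for D2 against B6, 33 to 36 for B6-13D2 against B6, 29 to 33 for D2-13B6 against D2 and 35 to 37 for the difference between backgrounds, which was not run with only the libraries compared because it needs all groups. Leaving out 1 library at a time gave 31 to 34, 30 to 35, 25 to 36 and 34 to 37 in that order, and 2 to 4 genes that went with the segment's allele, 4 without D2 replicate 3. Requiring a log2 fold change of at least 1 in size left 5, 7, 1, 17 and 0; the last count is 2 without that requirement. Of 180 results of single genes, 137 were called, and 115 of these stayed called in the same direction under every alternative other than that fold requirement. No called result changed sign; of the 43 that were not called, 17 changed sign under at least 1 alternative and stayed uncalled in it. RLE size factors moved the median of all genes by at most 0.07 on the log2 scale. Depth limits Zim1, Magel2, Asb4, Slc22a18, Airn and Nap1l5, which had the fewest counts among tested members.

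With the replicate number as a block, the counts were 33, 34, 31 and 36, and 2 genes went with the segment's allele. The samples share only a number: deviations of same-numbered libraries correlated with a mean of -0.007 (-0.161 to 0.098 over 18 pairs), and 4 of 12 libraries correlated best with their own number.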

Other observations

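Of 13 further imprinted genes outside the 48, 10 were tested, and Calcr, Slc22a2 and Slc22a3 were too low. Among the 10, 3 were higher and 5 lower in D2 than in B6, with 60% of all genes called. In B6-13D2 against B6, 2 were higher and 5 lower, beside 58.3% of all genes. In D2-13B6 against D2, 4 were higher and 2 lower, near the 57.3% called of all genes. Dio3, a paternally expressed deiodinase that inactivates thyroid hormone at the far end of the Dlk1-Meg3 domain, was at 14.5 ± 1.39 CPM (SD, n = 3) in B6 and 4.14 ± 0.704 in B6-13D2. Dio3 stood at 2.40 ± 0.413 CPM in D2 and 1.74 ± 0.157 in D2-13B6. It was lower in D2 than in B6 (log2 fold change -2.62, SE 0.138, adjusted p = 3.55e-11), in B6-13D2 than in B6 (log2 fold change -1.81, SE 0.126, adjusted p = 8.62e-10) and in D2-13B6 than in D2 (log2 fold change -0.44, SE 0.173, adjusted p = 0.0362), in edgeR's quasi-likelihood test. Dlk1 at the other end of that domain was in contrast higher in D2 than in B6. Osbpl5, a maternally expressed lipid-binding protein of the Kcnq1 domain, was at 38.6 ± 0.567 CPM (SD, n = 3) in B6 and 11.1 ± 0.622 in B6-13D2. Osbpl5 stood at 58.1 ± 5.71 CPM in D2 and 29.1 ± 1.20 in D2-13B6. It was higher in D2 than in B6 (log2 fold change 0.59, SE 0.0607, adjusted p = 1.83e-07) and lower in B6-13D2 than in B6 (log2 fold change -1.79, SE 0.0725, adjusted p = 4.65e-13) and in D2-13B6 than in D2 (log2 fold change -0.999, SE 0.0602, adjusted p = 1.7e-10). Its group order was that of the summed fibroblast markers, whose part was not tested.

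The 7 primitive endoderm markers, of which Foxa2 was too low to test, summed to 32.2 to 33.4 CPM in B6, 15.1 to 15.7 in B6-13D2, 41 to 43.7 in D2 and 36.4 to 38.2 in D2-13B6. Dab2 was the most abundant of them in every group, at 21.7 CPM in B6, 7.92 in B6-13D2, 29.7 in D2 and 21.9 in D2-13B6. Sox17 was higher in D2-13B6 than in D2 (log2 fold change 1.53, SE 0.27, adjusted p = 0.000104).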
